A study of Mus musculus with 6 samples.

Results

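The pentose phosphate pathway and the cytosolic supply of NADPH were described here through 10 genes: G6pdx, Pgls and Pgd of the oxidative branch, H6pd of its counterpart in the endoplasmic reticulum, Rpia, Rpe, Tkt and Taldo1 of the non-oxidative branch, and Me1 and Idh1, which encode cytosolic NADPH-producing dehydrogenases outside the pathway. The genes were chosen by name, and all 10 were found by their symbols among the 56305 genes of the table. They were measured by RNA-Seq of poly(A)-selected RNA in liver from 6 male mice, 3 WT and 3 Vps15LKO, with 1 library per mouse. All mice were 5 weeks old, were fed ad libitum and were killed 6 h after lights on (ZT6). Vps15LKO mice carry the AlbCre+;Vps15 f/f genotype, in which Cre driven by the albumin promoter removes a floxed part of the gene for Vps15, a regulatory protein of class 3 PI3K. The control mice are called WT in the labels, which give neither their Cre nor their floxed alleles.

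The pathway starts from glucose-6-phosphate. Its oxidative branch makes NADPH and ribulose-5-phosphate, and its non-oxidative branch interconverts the pentose phosphates with fructose-6-phosphate and glyceraldehyde-3-phosphate. In liver, NADPH is used for the synthesis of fatty acids and cholesterol and for keeping glutathione and thioredoxin reduced, and ribose-5-phosphate is used for nucleotides. H6pd carries out the first steps inside the endoplasmic reticulum, where its NADPH serves steroid reduction. The data are transcript levels and hold no enzyme activity, flux or NADPH level.

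The members moved in opposite directions. With the DESeq2 size factors used by the authors, G6pdx, Pgd, Rpia, Tkt and Taldo1 were higher in Vps15LKO livers, and H6pd, Pgls, Rpe, Me1 and Idh1 were lower, but Pgls and Rpe were above WT after scaling to total reads and H6pd was level with WT after quantile normalization. The change was 7.09-fold for Pgd and 2.66-fold for G6pdx, both called higher under all 21 alternatives tried. Tested genes had to reach 20 normalized counts in 3 or more livers, and each of the 10 reached 20 in all 6. A call required an adjusted p below 0.05 from limma and a change of 1.2-fold or more. All 10 members were called, 5 higher and 5 lower, where 66.5% of the 15430 genes tested were called, 33.5% higher and 33.0% lower. The values of the 3 WT and the 3 Vps15LKO livers did not overlap for any of the 10 members, which held for 73.2% of all tested genes. On the recovered reads, edgeR's quasi-likelihood test called all 10 members in the same directions and 66.1% of all tested genes.

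The direction of 3 of the lower members, Pgls, Rpe and H6pd, depended on the scaling, while Me1 and Idh1 stayed below WT under every alternative. The libraries held 16137093 to 18110223 reads on genes, but their size factors were 0.742 to 0.801 in the WT and 1.23 to 1.41 in the Vps15LKO group. Scaling to the same total of reads instead shifted the median over all tested genes up by 0.72 (log2). Under that scaling 6 members were called higher, beside 66.7% of all tested genes, and 2 lower, beside 11.1%. After quantile normalization 5 members were called higher, beside 31.2% of all tested genes, and 3 lower, beside 37.0%. With a fold of at least 1.5 required, 5 members were called higher, beside 27.6% of all tested genes, and 3 lower, beside 23.1%. Pik3r4, which encodes Vps15, was at 460 to 573 normalized counts in the WT and at 341 to 362 in the Vps15LKO livers. For Pik3r4 the log2 fold change was −0.54 (limma, adjusted p = 0.00207), and it was 0.19 and not called after scaling to total reads. Its count spans the whole gene and all liver cells, so it does not measure the deleted part.

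**Figure D1:**
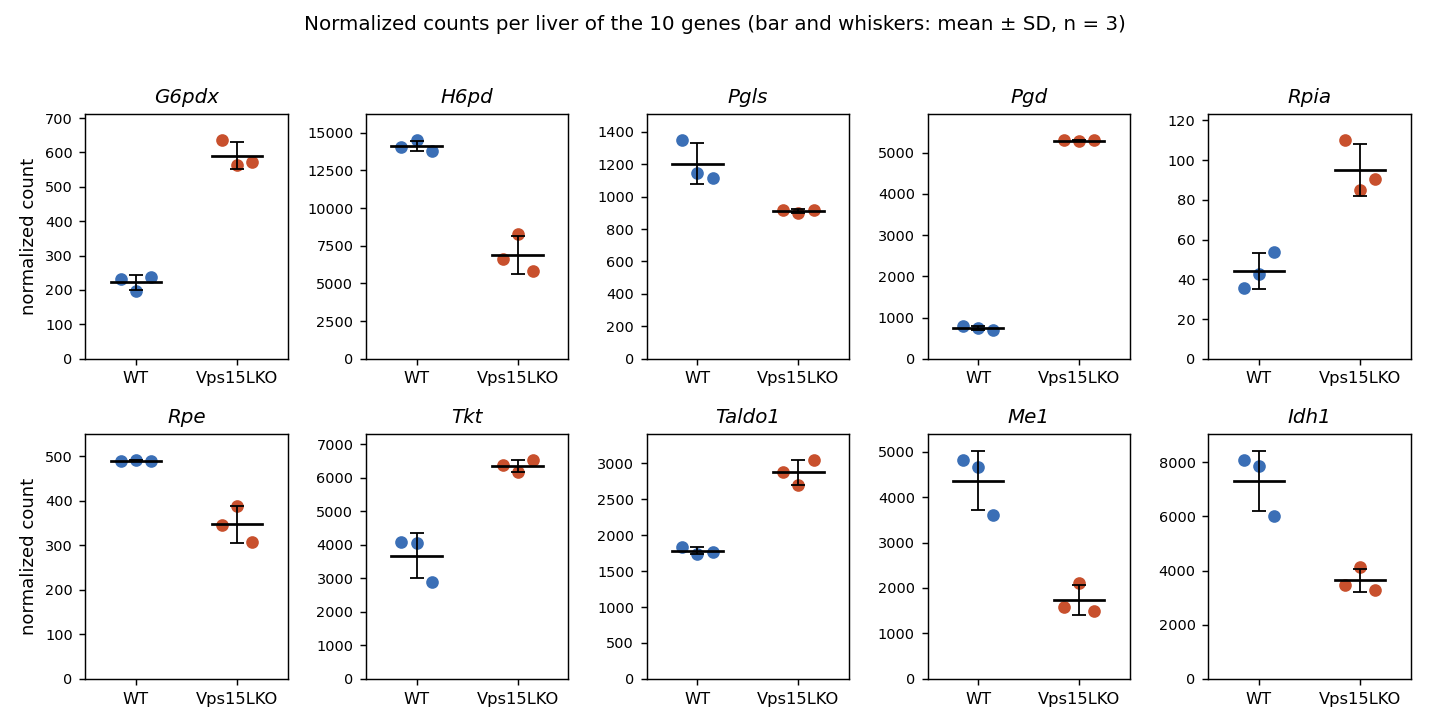
Normalized counts of the 10 genes in each liver, 1 panel per gene, with a linear axis from 0, blue points for the 3 WT and red points for the 3 Vps15LKO livers, and a bar with whiskers for the mean ± SD. The points of the 2 genotypes do not overlap in any panel, and Pgd shows the widest gap as a ratio, from 706 to 785 in WT to 5275 to 5302 in Vps15LKO livers.

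G6pdx encodes glucose-6-phosphate dehydrogenase, the committed and rate-limiting step of the cytosolic oxidative branch, and lies on chromosome X of GRCm38 from 74409483 to 74429194 on the minus strand. It had 232, 197 and 237 normalized counts in WT and 635, 565 and 571 in Vps15LKO livers. Every Vps15LKO liver was above every WT liver, and the spread within each genotype was small beside the gap. The mean rose from 222 ± 21.7 to 591 ± 38.9 (SD, n = 3 each), a log2 fold change of 1.41 (SE 0.11, limma adjusted p = 1.25e-05). Over all alternatives this value lay between 1.31 and 2.13. G6pdx lies within the span of Ikbkg on the opposite strand, and their exons share 418 bases, 13.6% of the exon length of G6pdx. Ikbkg itself, a subunit of the IκB kinase complex, stayed between 1045 and 1177 normalized counts in all 6 livers.

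Pgls encodes 6-phosphogluconolactonase, which opens the lactone made by G6pdx, and lies on chromosome 8 from 71592176 to 71601092 on the plus strand. Its WT livers held 1347, 1143 and 1115 normalized counts and its Vps15LKO livers 916, 899.5 and 917. The Vps15LKO livers were the lower and lay close together, and WT replicate 1 was the highest. The log2 fold change was −0.39 (SE 0.10, limma adjusted p = 0.00647), but it was 0.33 and called higher after scaling to total reads, and −0.15 and not called after quantile normalization. The direction of Pgls therefore changed with the scaling. Its exons share 776 bases on the same strand with Fam129c, which held 5 to 17 normalized counts.

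Pgd encodes 6-phosphogluconate dehydrogenase, which yields NADPH and ribulose-5-phosphate, and lies on chromosome 4 from 149149991 to 149166771 on the minus strand. Its normalized counts were 785, 747 and 706 in WT and 5302, 5275 and 5302 in Vps15LKO livers. The mean rose from 746 ± 39.3 to 5293 ± 15.8 (SD, n = 3 each), and the Vps15LKO livers differed from each other by a CV of 0.298%. Pgd had the largest log2 fold change of the 10 members, 2.83 (SE 0.08, limma adjusted p = 1.87e-07), and between 2.73 and 3.55 over all alternatives. It overlapped no other annotated gene.

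H6pd encodes the enzyme of the endoplasmic reticulum that joins the activities of G6pdx and Pgls, and lies on chromosome 4 from 149979475 to 150009023 on the minus strand. It had 14034, 14501 and 13820 normalized counts in WT and 6648, 8278 and 5812 in Vps15LKO livers. It had the highest mean normalized count of the 10 genes in both genotypes, though Tkt was above it in Vps15LKO replicate 3. Every Vps15LKO liver was below every WT liver, and Vps15LKO replicate 2 was the nearest to WT. The mean fell from 14118 ± 348 to 6913 ± 1255, a log2 fold change of −1.05 (SE 0.15, limma adjusted p = 0.000339), which was −0.32 and still called after scaling to total reads and 0.01 and not called after quantile normalization. A difference for H6pd was thus seen with size factors and total reads, but not after quantile normalization.

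Among the genes of the non-oxidative branch, Tkt and Taldo1 hold the reversible carbon transfers. Tkt encodes transketolase, a thiamine-dependent enzyme, on chromosome 14 from 30548359 to 30574720 on the plus strand. Its normalized counts were 4071, 4063 and 2897 in WT and 6380, 6169 and 6517 in Vps15LKO livers. WT replicate 3 lay well below the other WT livers, and all Vps15LKO livers were above all WT livers. The log2 fold change was 0.81 (SE 0.15, limma adjusted p = 0.00119), and 0.64 without WT replicate 3. Taldo1, transaldolase, lies on chromosome 7 from 141392199 to 141402968 on the plus strand. It had 1834, 1742 and 1763 normalized counts in WT and 2875, 2698 and 3038 in Vps15LKO livers, with no overlap. Its log2 fold change was 0.69 (SE 0.09, limma adjusted p = 0.000171). Both genes were called higher under every alternative but by different sizes, Tkt with log2 fold changes up to 1.63 and Taldo1 up to 1.41. The microRNA gene Mir3076, which shares 1 exonic base with Tkt on the same strand, held 198 to 250 normalized counts in the WT livers and 374 to 418 in those of Vps15LKO mice. Since 1 read could count for 2 overlapping genes, these counts may include reads of Tkt, which was not tested.

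The isomerase and the epimerase of ribulose-5-phosphate moved apart. Rpia, the isomerase that makes ribose-5-phosphate, lies on chromosome 6 from 70765720 to 70792232 on the minus strand. It had 35.8, 42.5 and 53.9 normalized counts in WT and 110.0, 85.1 and 90.5 in Vps15LKO livers. Rpia was the lowest member throughout, with 27 to 144 reads per library, and its spread was wide, with a CV of 20.8% in WT livers. It was nevertheless called higher, with a log2 fold change of 1.11 (SE 0.20, limma adjusted p = 0.00132), and between 0.56 and 1.82 over all alternatives. Rpe, the epimerase that makes xylulose-5-phosphate, lies on chromosome 1 from 66700831 to 66719805 on the plus strand. It had 489, 491 and 491 normalized counts in WT and 345, 389 and 307 in Vps15LKO livers. The WT livers were almost equal and the Vps15LKO livers were lower and more spread. The log2 fold change was −0.50 (SE 0.11, limma adjusted p = 0.00313), but 0.22 and not called after scaling to total reads. The exons of Rpe share 558 bases with Kansl1l on the opposite strand, and Kansl1l held 262 to 282 normalized counts in all 6 livers.

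The 2 dehydrogenases outside the pathway fell together. Me1 encodes the cytosolic malic enzyme, a lipogenic source of NADPH, on chromosome 9 from 86581371 to 86695953 on the minus strand. It had 4804, 4659 and 3609 normalized counts in WT and 1582, 2119 and 1502 in Vps15LKO livers. WT replicate 3 was the lowest WT liver and Vps15LKO replicate 2 the highest Vps15LKO liver, without overlap. The log2 fold change was −1.33 (SE 0.16, limma adjusted p = 0.000126), −0.61 after scaling to total reads and −0.84 after quantile normalization, and it was called under each. Idh1, the cytosolic and peroxisomal NADP-dependent isocitrate dehydrogenase, lies on chromosome 1 from 65158616 to 65186500 on the minus strand. It had 8060.4, 7841 and 6016 normalized counts in WT and 3481, 4125 and 3294 in Vps15LKO livers. The same livers stood out as for Me1. Its log2 fold change was −1.002 (SE 0.15, limma adjusted p = 0.000366), but −0.28 and not called after scaling to total reads (adjusted p = 0.0514). A noncoding antisense neighbour of Me1, A330041J22Rik, shares 30 exonic bases with it and held 338 to 378 normalized counts in the WT but 110 to 152 in the Vps15LKO livers.

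**Figure D2:**
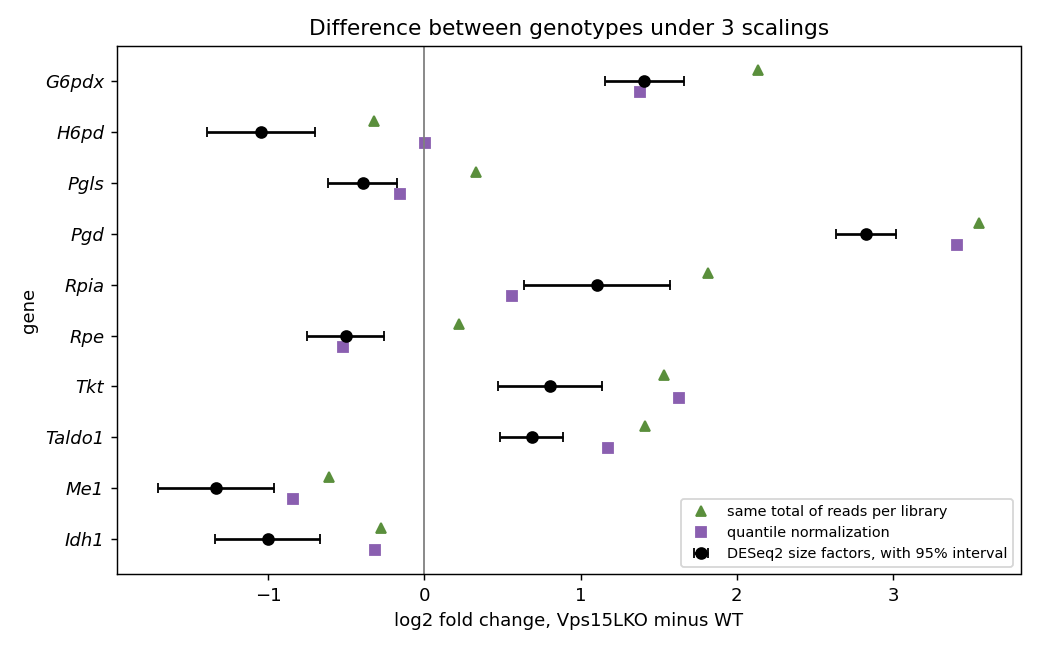
Log2 fold change of each of the 10 genes, Vps15LKO minus WT, on the horizontal axis, with black points and bars for the values with size factors and their 95% intervals, green triangles after scaling to total reads and violet squares after quantile normalization. G6pdx, Pgd, Rpia, Tkt and Taldo1 lie right of 0 under all 3 scalings and Me1 and Idh1 left of it, while Pgls and Rpe cross 0 after scaling to total reads and H6pd reaches 0.01 after quantile normalization.

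The start regions of the members were searched for the core of the antioxidant response element, TGACNNNGC, which is bound by Nrf2 with small Maf proteins and is known from NADPH genes, and for the E-box CACGTG, which is bound by Bmal1 with Clock. Windows from 250 bases before to 50 bases after the annotated start were taken from RefSeq on GRCm38.p6, on both strands, and all 10 members matched, with 13 windows. The core of the antioxidant response element was found in 3 windows of 3 members, beside 12.4% of all 32851 windows and 14.0% of genes. The E-box was found in 0 of the 13 windows, beside 7.15% of all windows. The matches are shown with 10 flanking bases on each side, on the strand of the gene, with the motif in capitals. Every match found is shown, whatever the direction of its gene, with Pgd and G6pdx upward and Me1 downward. No link between a match and a change was tested.
Pgd, chr4:149166061-149166089, minus strand: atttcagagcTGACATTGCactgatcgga
Me1, chr9:86695902-86695930, minus strand: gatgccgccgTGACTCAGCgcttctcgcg
G6pdx, chrX:74428919-74428947, minus strand: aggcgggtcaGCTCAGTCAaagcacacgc
The motif lay at bases 4 to 12 after a start of Pgd, from −6 to 3 around the start of Me1, and from −57 to −49 of G6pdx, where it is read on the other strand. A match describes these letters and is no measured site, and no binding was measured here.

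Ratios between 2 members within a liver do not depend on the size factor of the library, but quantile normalization, which rescales each gene by its rank, does change them. That alternative was added for the ratios and for the shares of a summed level after the data were seen. In all, 11 ratios of normalized counts were compared between genotypes with a two-sided exact permutation test on the log2 scale. In 9 of them the genotypes did not overlap, each with an exact p = 0.1, the smallest that 3 against 3 livers allow, and 0.122 after Benjamini-Hochberg adjustment over the 11. This test therefore cannot pass 0.05 for a single ratio. G6pdx stood to Pgd as 0.296, 0.264 and 0.336 in WT and as 0.120, 0.107 and 0.108 in Vps15LKO livers. Of these 2 dehydrogenases of the oxidative branch, Pgd thus gained on G6pdx by 2.67-fold, and by 4.09-fold after quantile normalization. Pgls, the step between them, stood to Pgd as 1.53 to 1.72 in WT and as 0.171 to 0.173 in Vps15LKO livers, so Pgd passed from below Pgls to above it in counts.

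G6pdx gained on H6pd, Me1 and Idh1. Its ratio to H6pd was 0.0136 to 0.0172 in WT and 0.0682 to 0.0983 in Vps15LKO livers, 5.48-fold higher, and 2.59-fold higher after quantile normalization. The ratio of G6pdx to Me1 was 0.0424 to 0.0657 in WT and 0.267 to 0.402 in Vps15LKO livers, 6.69-fold higher. Against Idh1 the gain was 5.32-fold, and 3.23-fold after quantile normalization. Me1 and Idh1 kept nearly the same proportion in the WT livers, with ratios of 0.596, 0.594 and 0.600, and 0.454, 0.514 and 0.456 in the Vps15LKO livers. Me1 thus fell relative to Idh1, by 0.33 on the log2 scale and by 0.53 after quantile normalization.

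Within the non-oxidative branch the picture was mixed. The ratio of Taldo1 to Tkt was 0.429 to 0.609 in WT and 0.437 to 0.466 in Vps15LKO livers and overlapped (exact permutation p = 0.9, two-sided, n = 3 each). Its log2 difference of −0.12 turned to 0.04 without WT replicate 3, the liver with the lowest Tkt, and was −0.18 without WT replicate 1, −0.21 without WT replicate 2 and −0.45, without overlap, after quantile normalization. Rpia to Tkt also overlapped, with 0.0088 to 0.0186 in WT and 0.0138 to 0.0172 in Vps15LKO livers (exact permutation p = 0.5), and its log2 difference of 0.30 turned to −1.07 after quantile normalization. That difference was 0.080 without WT replicate 1, 0.20 without WT replicate 2, 0.61 without WT replicate 3 and 0.19 without Vps15LKO replicate 1. With a pseudocount of 10 in place of 1, the difference of Rpia to Tkt was 0.16. Rpe fell against Tkt, from between 0.120 and 0.169 to between 0.0471 and 0.0630, a log2 difference of −1.31, and −2.15 after quantile normalization. Of the oxidative genes, Pgd gained on Tkt by 4.05-fold. The ratio of G6pdx to Tkt was 1.52-fold higher in Vps15LKO livers, but its log2 difference of 0.60 turned to −0.25, with overlap, after quantile normalization.

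Levels of different genes were compared as normalized counts per kb of annotated exon. In WT livers the order was H6pd with 2696 ± 66.5 (SD, n = 3), Idh1 with 2636 ± 405, Me1 with 1132 ± 170, Taldo1 with 819.8 ± 22.05, Tkt with 499.9 ± 91.9, Pgls with 319 ± 33.6, Rpe with 157 ± 0.282, Pgd with 116 ± 6.10, G6pdx with 72.1 ± 7.04 and Rpia with 8.22 ± 1.71. Only H6pd and Idh1 overlapped as neighbours in this order. In Vps15LKO livers Taldo1, with 1322 ± 78.2 per kb, H6pd, with 1320.2 ± 240, and Idh1, with 1311 ± 157, came first, and both neighbouring pairs overlapped. They were followed by Tkt with 864 ± 23.8, Pgd with 821 ± 2.45, Me1 with 451 ± 87.2, Pgls with 242 ± 2.66, G6pdx with 192 ± 12.6, Rpe with 111 ± 13.2 and Rpia with 17.8 ± 2.44. Pgd moved from the 8th to the 5th place and Me1 from the 3rd to the 6th. The order depended on the length and on the normalization used. After quantile normalization Idh1 held a larger mean share of the summed level (30.7%) than H6pd (29.3%) in WT livers. In Vps15LKO livers H6pd (22.5%) then came before Idh1 (18.8%) and Taldo1 (18.6%). With the longest transcript in place of all exons, Idh1 came before H6pd and Pgd before Rpe in WT livers, Tkt came second after Taldo1 in Vps15LKO livers, and Pgd moved from the 7th to the 4th place.

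The make-up of the summed level per kb of the 10 genes does not depend on the size factors. It shifted towards the cytosolic pathway genes, in the non-oxidative branch and, through Pgd and G6pdx, in the oxidative branch. The 4 non-oxidative genes held 17.6% ± 0.42 (SD, n = 3) of the sum in WT and 34.9% ± 3.29 in Vps15LKO livers. Me1 and Idh1 went from 44.4% ± 3.05 to 26.4% ± 2.09. The oxidative branch with H6pd held 38.0% ± 2.65 in WT and 38.7% ± 1.31 in Vps15LKO livers, so its share overlapped while its parts changed. H6pd went from 32.0% to 19.8% and Pgd from 1.37% to 12.4%, and G6pdx from 0.860% to 2.89%. The 7 cytosolic pathway genes together went from 23.6% ± 0.84 to 53.8% ± 4.48. After quantile normalization the non-oxidative genes went from 19.3% to 34.4%, Me1 and Idh1 from 44.4% to 24.7% and the oxidative branch from 36.3% ± 2.25 to 40.9% ± 1.56. These shares are a description without a test, and they use the summed length of all annotated exons. With the longest transcript as length, Tkt held 10.5% instead of 5.88% in WT and 20.1% instead of 13.0% in Vps15LKO livers, and the genotypes differed in the same direction for each of the genes named here.

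**Figure D3:**
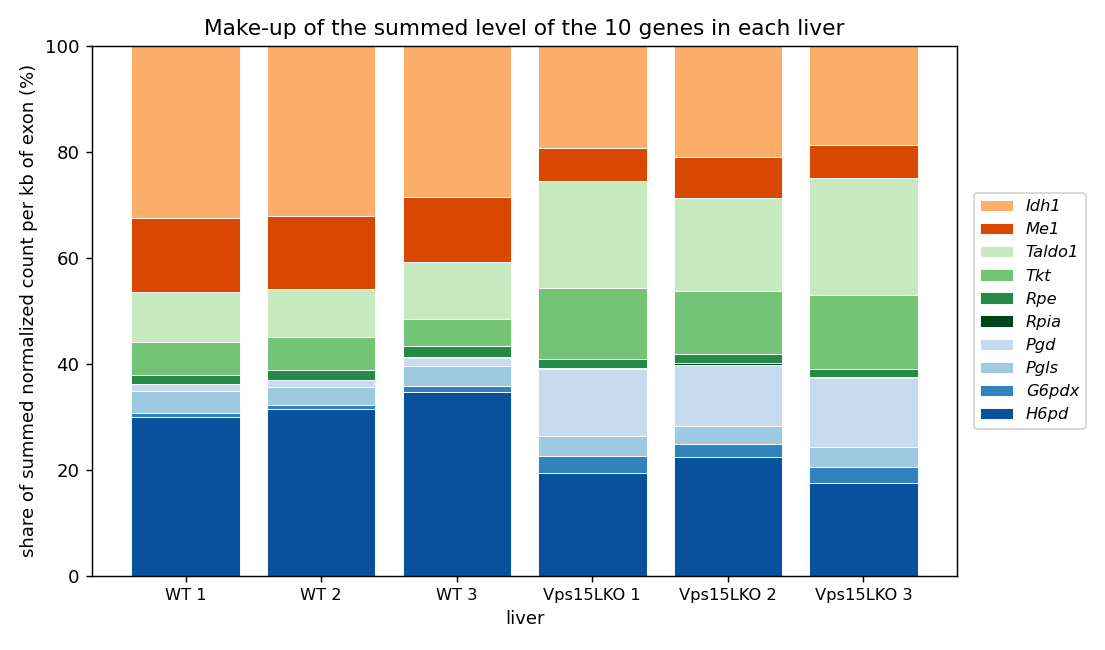
Share of each gene, in percent, in the summed normalized count per kb of exon of the 10 genes, with 1 stacked bar for each of the 3 WT and 3 Vps15LKO livers, blue for the oxidative branch with H6pd, green for the non-oxidative branch and orange for Me1 and Idh1. The green part widens from 17.6% to 34.9% on average and the orange part narrows from 44.4% to 26.4%, while Pgd widens within the blue part.

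Genes closely related to the members were looked up by their own identifiers. G6pd2, a retrogene of G6pdx, and Tktl2, a transketolase-like gene, were at 0 in all 6 livers, and Tktl1 had 1 read in 1 Vps15LKO library. The mitochondrial malic enzyme Me2 had 61.0, 49.96 and 74.1 normalized counts in WT and 193, 236 and 174 in Vps15LKO livers. It was called higher (log2 fold change 1.69, limma adjusted p = 7.64e-05), opposite to Me1. Me3, the other mitochondrial form, stayed under the filter with 2.70 to 27.6 normalized counts. Idh2, the mitochondrial counterpart of Idh1, had 2392, 2037 and 1615 normalized counts in WT and 2621, 2782 and 2526 in Vps15LKO livers. Its log2 fold change of 0.41 was called (limma adjusted p = 0.0306), again opposite to that of Idh1, but not after upper-quartile scaling.

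Lists of genes around the pathway were described by their counts. Of all tested genes, 33.5% were called higher and 33.0% lower, and 66.7% and 11.1% after scaling to total reads. Of the 22 tested neighbours in sugar phosphate metabolism, 6 were called higher and 13 lower, and after scaling to total reads 10 and 7. At the entry to the pathway, the hexokinases Hk2 (log2 fold change 2.94) and Hk1 (1.53), which are low in normal liver, rose, as did Pgm2 (1.68), a phosphopentomutase. G6pc, the catalytic subunit of glucose-6-phosphatase, fell by 3.21. Slc37a4, which carries glucose-6-phosphate into the endoplasmic reticulum where H6pd acts, fell by 2.22, from 2516–2627 normalized counts in the WT livers to 506–609 in those of Vps15LKO mice. These 5 genes kept their direction and call after scaling to total reads and after quantile normalization.

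Of 15 tested genes that supply NADPH or NADP by other routes or carry the citrate and malate cycle that feeds Me1, 5 were called higher and 9 lower, and 6 and 6 after scaling to total reads. The shares of all tested genes were 33.5% higher and 33.0% lower, and 66.7% and 11.1% after that scaling. In this list the cytosolic folate enzymes Aldh1l1 (log2 fold change −1.81) and Mthfd1 (−1.64) fell and their mitochondrial counterparts Aldh1l2 (3.40) and Mthfd2 (1.91) rose. Nadk2, the mitochondrial NAD kinase, fell by 1.57.

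Enzymes of pathways that use NADPH were taken as 2 lists. Not every enzyme in them uses NADPH itself, since Lss, the lanosterol synthase, needs no such cofactor, Nsdhl, a sterol dehydrogenase, works with NAD, and Qdpr prefers NADH. Of 12 enzymes of fatty acid and sterol synthesis 0 were called higher and 11 lower, with a median log2 fold change of −0.85, while 4 were called lower after scaling to total reads, and 7 lower and 1 higher after quantile normalization. The largest falls were those of the sterol enzymes Tm7sf2 (−2.46), Sc5d (−1.46) and Nsdhl (−1.46). Of 17 enzymes of reduction and detoxification, 9 were called higher and 6 lower, with a median of 1.02, and 10 and 3 after scaling to total reads. The carbonyl reductase Cbr3 rose by 7.67 on the log2 scale, from 5.39–11.9 normalized counts in the WT livers to 1453–1943 in those of Vps15LKO mice, the quinone reductase Nqo1 by 3.59 and the prostaglandin reductase Ptgr1 by 2.90. Cbr3 passed the filter only through the Vps15LKO livers. Hsd11b1, the glucocorticoid-activating reductase of the endoplasmic reticulum that uses the NADPH made by H6pd, fell by 2.55, Qdpr, which regenerates tetrahydrobiopterin, by 1.91. The log2 fold change of the NADPH oxidase Nox4 was −4.41, with 121 to 545 normalized counts in the WT livers. The median over all tested genes was −0.02, and 33.5% of them were called higher and 33.0% lower. These shares were 66.7% and 11.1% after scaling to total reads, and 31.2% and 37.0% after quantile normalization.

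Of 16 regulators known to act on these genes, 4 were called higher and 10 lower, and 8 and 5 after scaling to total reads. Among all tested genes 33.5% were called higher and 33.0% lower, and 66.7% and 11.1% after that scaling. Myc (log2 fold change 3.02), Maff (2.12), a small Maf partner of Nrf2, and Trp53 (0.99), which encodes p53, had the largest rises. Thrsp, a lipogenic cofactor, fell by 4.53, Mlxipl, which encodes the glucose-responsive factor ChREBP, by 2.15 and Ppara, the fatty acid oxidation receptor, had a log2 fold change of −1.99.

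**Figure D4:**
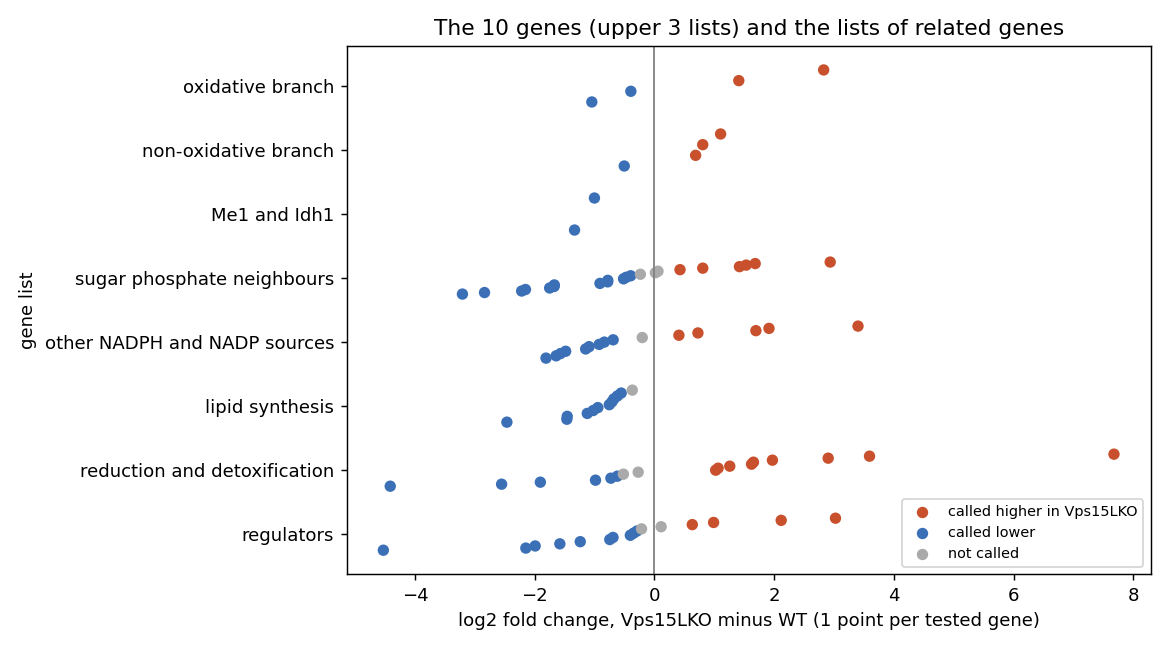
Log2 fold change of every tested gene, Vps15LKO minus WT, in the 10 genes (upper 3 rows) and in the 5 lists of related genes, with 1 point per gene, red where called higher, blue where called lower and grey where not called. With the size factors the enzymes of lipid synthesis lie left of 0, though only 4 of the 12 were called lower after scaling to total reads, and those of reduction and detoxification spread from −4.41 (Nox4) to 7.67 (Cbr3).

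The genes whose pattern over the 6 livers was most like that of G6pdx and of Me1 were found by the root mean square difference of centred log2 values among 11247 other genes whose mean reached 100 normalized counts. For G6pdx they were Gpr39 (0.062), Fam49b (0.070) and Lfng (0.071), and for Me1 they included Zfand2b (0.057) and Gm29253 (0.058), over 6 livers each. All these genes share the libraries and the genotype difference, so the likeness is a description.

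The liver samples hold several cell types, and in bulk RNA fewer cells of a type and less RNA per cell cannot be told apart. Of 12 hepatocyte markers 11 were called lower and 0 higher, and their summed normalized counts were 3043080 to 3486580 in WT and 841471 to 1280400 in Vps15LKO livers. Most of this sum was Alb, with means of 2183720 in WT and 792222 in Vps15LKO livers, the marker not called (limma adjusted p = 0.366). Proliferation markers rose in 10 of 10, from sums of 748 to 1034 to sums of 4037 to 4251, macrophage markers in 9 of 10, from 4504–5555 to 23093–25294, stellate cell markers in 10 of 10, from 2910–3743 to 20057–24513, and cholangiocyte markers in 8 of 8, from 1283–1452 to 12648–24202. Spp1 alone, with 10402 to 20496 normalized counts, made most of the cholangiocyte sum in Vps15LKO livers. Of 8 endothelial markers 3 were called higher and 5 lower, with sums of 7093–7673 in WT and 5230–7084 in Vps15LKO livers. Of the 9 tested of 12 lymphocyte and neutrophil markers 8 were called higher, with sums of 127–164 and 506–586, and of the 6 tested of 7 erythroid markers 1 was called higher and 1 lower, with sums of 7565–10043 and 6732–9411. After scaling to total reads, 4 endothelial markers were called higher and 0 lower, 5 erythroid markers higher and 1 lower and all 10 macrophage markers higher, and the counts of the other marker lists were the same. Quantile normalization gave 8 hepatocyte markers lower, 9 proliferation markers higher, and 7 lymphocyte and neutrophil markers higher and 1 lower. It also gave 3 endothelial markers higher and 3 lower, 4 erythroid markers higher and 1 lower, and all 10 macrophage markers higher. Beside these counts, 33.5% of all tested genes were called higher and 33.0% lower with the size factors. The shares were 66.7% and 11.1% after scaling to total reads, and 31.2% and 37.0% after quantile normalization. None of the markers in these lists was at 0 in all 6 livers. Their part in the changes of G6pdx, Pgd and the other members was not tested.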

How the data were processed

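RNA-Seq of 6 livers (3 WT, 3 Vps15LKO) was used, with groups from the sample labels and age and ZT from the methods. Per the study's methods, the authors used SOAPnuke to filter, HISAT2 to map (GRCm38), featureCounts to count and DESeq2 to normalize. Versions, strand and multi-mapping settings are not given in the sources used here, though the library protocol marks the strand. The deposited unit is a signal, each gene's read count over the size factor of its library. Every value (100% per library, tolerance 0.01 reads) was a whole multiple of 1 read, which gave back whole reads, 16137093 to 18110223 per library. The 2 overlapping Nnt entries held reads equal to 99.4% to 99.8%, so 1 read could count for 2 overlapping genes.

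The 15430 genes that reached 20 normalized counts in 3 or more livers were tested on log2(normalized count + 1) with limma 3.58.1 (trend, R 4.3.3), adjusted by Benjamini-Hochberg over these 15430. Fold changes on this scale understate changes of low genes. The step was tested on simulated data that were scaled by their known size factors, so the choice of scaling was not part of that test. Exon lengths and positions come from GENCODE M21 (GRCm38) and start regions from RefSeq. The methods state that breeding aimed at litters with both genotypes, but nothing ties a replicate number to a litter. The p-values measure the spread between these mice. Same-numbered livers did not deviate together (correlations −0.010, −0.011 and 0.049), so no block was used. The chi-square per gene between replicates lay between 14.6 and 40.8, so no library was a copy. The alternatives, 21 in all, were other pseudocounts (0.1 and 10), filters, scalings, thresholds, edgeR 4.0.16, DESeq2 1.42.0 and voom on recovered reads (edgeR called 10205 genes), each liver left out in turn, and a block. Members, lists and tests were chosen with earlier results of these data known. Named beside the members were Pik3r4, separate genes related to the members, up to 3 largest rises and falls per related list, the 3 genes most like G6pdx and Me1, and genes with overlapping exons, which were added after the files were seen. A gene of a related list and a gene like Me1 that this rule names are not reported here.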

Additional observations from a re-analysis of the deposited data

How the results depend on the processing

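Of the 10 members, G6pdx, Pgd, Rpia, Tkt, Taldo1 and Me1 kept their direction and call under all 21 alternatives. Leaving out any 1 liver changed no direction and no call of the 10. After scaling to total reads, 2 members were called lower, the log2 fold changes of Pgls and Rpe turned to 0.33 and 0.22, Idh1 was at −0.28 and not called, and 10299 genes of all tested were called higher and 1712 lower. After quantile normalization 3 members were called lower, H6pd turned to 0.0071 and Pgls was at −0.15, and, added after seeing the data, the log2 differences of G6pdx to Tkt and Rpia to Tkt turned to −0.25 and −1.07. With a fold of at least 1.5, 3 members were called lower, without Pgls and Rpe, and 3566 of all tested genes. These settings change the scaling or the threshold itself. With 1 liver left out, the log2 difference of Taldo1 to Tkt lay between −0.21 and 0.038, the latter without WT replicate 3. With a replicate block, 10048 genes were called, with no change for the 10 members (G6pdx 1.41, Me1 −1.33), but the numbers did not pair the samples. Precision is limited by 3 mice per genotype and, for Rpia, by 27 to 144 reads per library.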
